A study of Mus musculus with 8 samples.

Results

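The genes described here are those of the cellular response to low oxygen and of glycolysis, measured in whole mammary tumors of mice. They were chosen by name from a list of 42 genes that covers oxygen sensors, the transcription factors they control, targets of those factors and the enzymes of glycolysis. Of the 42, 38 had an array row with a single gene symbol and are described below, among 22180 genes measured in this way. Aldoa and Ankrd37 had only rows shared with a neighbouring or related gene, and Gpi1 and Eno1 were not analysed here. The samples were 8 tumors from mice with the MMTV-PyMT transgene, which drives the polyoma middle T oncogene from a viral promoter active in mammary epithelium. All 8 tumors came from mice homozygous for floxed Mmp14, on a congenic FVB/NJ background, at an age of 3 to 4 months, and were taken from inguinal and thoracic glands. In 4 of them (cKO) an MMTV-Cre transgene was also present, so that Cre acts in the cells in which the MMTV promoter is active, while the other 4 (WT, the submitters' wild type) came from littermates without Cre. The groups therefore differ in the Cre transgene as well as in the targeted gene. The labels call the tumors biological replicates 1 to 4 of each group and do not say whether each came from its own mouse.

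Cells sense oxygen through prolyl hydroxylases, which mark the hypoxia-inducible factors HIF-1α (Hif1a) and HIF-2α (Epas1) for destruction while oxygen is present. When oxygen is short the factors accumulate, pair with ARNT and switch on genes for blood vessel growth, glucose uptake, glycolysis, lactate export and pH control. The control acts mainly on the proteins, so the RNA of the factors is not a readout of their activity. In solid tumors the response is known from regions that lie far from perfused vessels, and many carcinoma cells also run glycolysis at high rates in the presence of oxygen.

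Each tumor gave 1 array of log2 signals, in which a difference of 1 is a factor of 2, and array medians ran from 3.64 to 3.71. The targeted Mmp14 lay between 8.86 and 9.31 in the WT tumors and between 7.44 and 7.98 in the cKO tumors, a difference of −1.40 (SE 0.13, limma adjusted p 0.0444). With any 1 tumor left out the Mmp14 difference lay between −1.48 and −1.30, but its adjusted p was below 0.05 only without cKO 1 or cKO 3 and was as high as 0.211 without cKO 4. It was also above 0.05 with the replicate number (0.353) or the array file number (0.0708) as a block. The tissue label was checked on epithelial markers, of which Epcam lay between 10.45 and 10.64 and Krt8 between 10.06 and 10.74 in the 8 tumors. Krt19 was less even, from 6.21 in cKO 3 to 8.96 in WT 4, and differed by −1.15 between the groups (limma adjusted p 0.446). Of the 38 genes, 34 had a mean signal of at least 5, a level below which a row is dim and its differences may understate those in RNA. In whole tumors fewer cells of a type and less RNA per cell cannot be told apart. The number of arrays limits the precision.

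In 33 of the 38 genes the difference between the group means was smaller than the spread within the groups. That share was not computed over all rows. The median within-group SD of the 38 genes was 0.35 on the log2 scale. It was 0.17 over all 23521 tested rows and 0.19 over the 10186 rows whose mean was 5 or more. Over the 8 tumors the highest and lowest signals lay at least 1 apart in 18 of the 38 genes (47.4%). This share was 13.2% of all tested rows and 19.8% of rows with a mean of at least 5, a level that 4 of the 38 genes did not reach. The genes were highest in the same few tumors. WT 4 was the highest of the 8 tumors in 15 genes and cKO 2 in 16, together 81.6% of the 38. The corresponding share was 25.4% of all rows and 28.6% of rows with a mean of at least 5. WT 1, WT 4 and cKO 2 were the 3 highest tumors in 13 genes (34.2%), beside 3.51% of all rows and 5.80% of those brighter rows. This set of tumors was read from the values themselves and holds members of both groups.

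**Figure D1:**
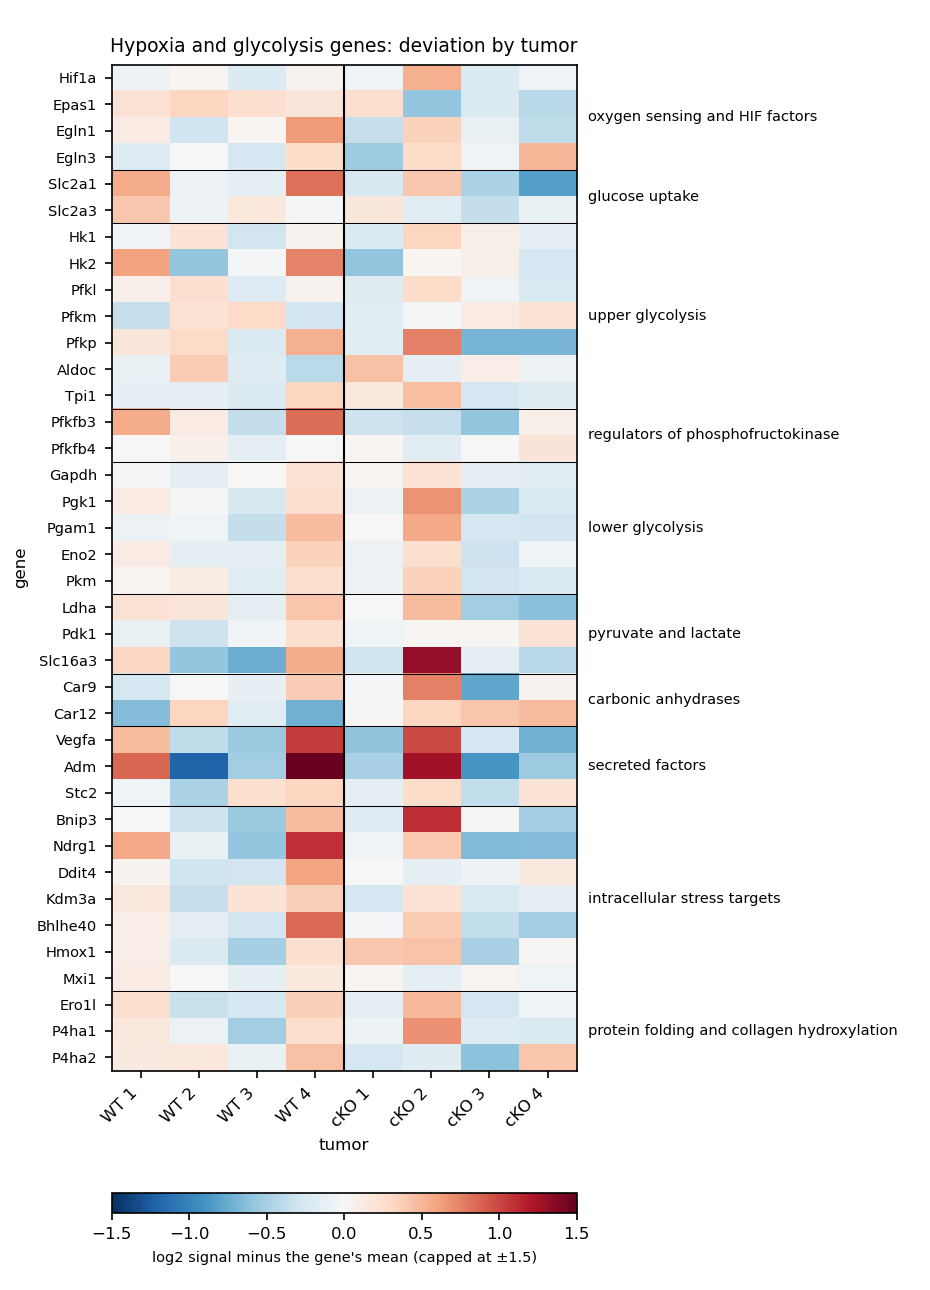
Log2 signal of each of the 38 genes (vertical axis, ordered by role) in each of the 8 tumors (horizontal axis, WT left and cKO right of the line), as the deviation from that gene's mean over the 8 tumors, with colors capped at ±1.5. The columns of WT 4 and cKO 2 are above the mean for most genes, and WT 1 is for many, while WT 2, WT 3, cKO 3 and cKO 4 are mostly below it.

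Among the secreted factors, Adm and Vegfa varied most. Adm encodes adrenomedullin, a peptide that widens vessels and supports lymphatic and vascular growth. Its log2 signal was 7.34, 5.28, 5.95 and 7.98 in WT 1 to WT 4 and 5.996, 7.74, 5.59 and 5.93 in cKO 1 to cKO 4. WT 1, WT 4 and cKO 2 were thus well above each of the other 5 tumors, and the groups overlapped. The range over the 8 tumors, 2.71, was larger than that of 99.1% of tested rows. Vegfa, the main growth factor of blood vessels, had signals of 8.62, 7.76, 7.60 and 9.19 in the WT tumors and 7.54, 9.14, 7.89 and 7.44 in the cKO tumors. The same 3 tumors were highest, and each group held high and low tumors. The cKO minus WT difference was −0.32 for Adm (95% confidence interval −1.78 to 1.13) and −0.29 for Vegfa (−1.29 to 0.71), with limma's adjusted p of 0.904 and 0.868. Both intervals hold a difference of −1, a factor of 2. Without WT 4 the differences were 0.12 and 0.010, and without cKO 2 they were −0.80 and −0.67, so that their size and sign rested on those tumors. Stc2, a secreted glycoprotein of calcium and phosphate balance, was less variable, between 5.22 in WT 2 and 6.02 in WT 4, and differed by −0.0079.

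**Figure D2:**
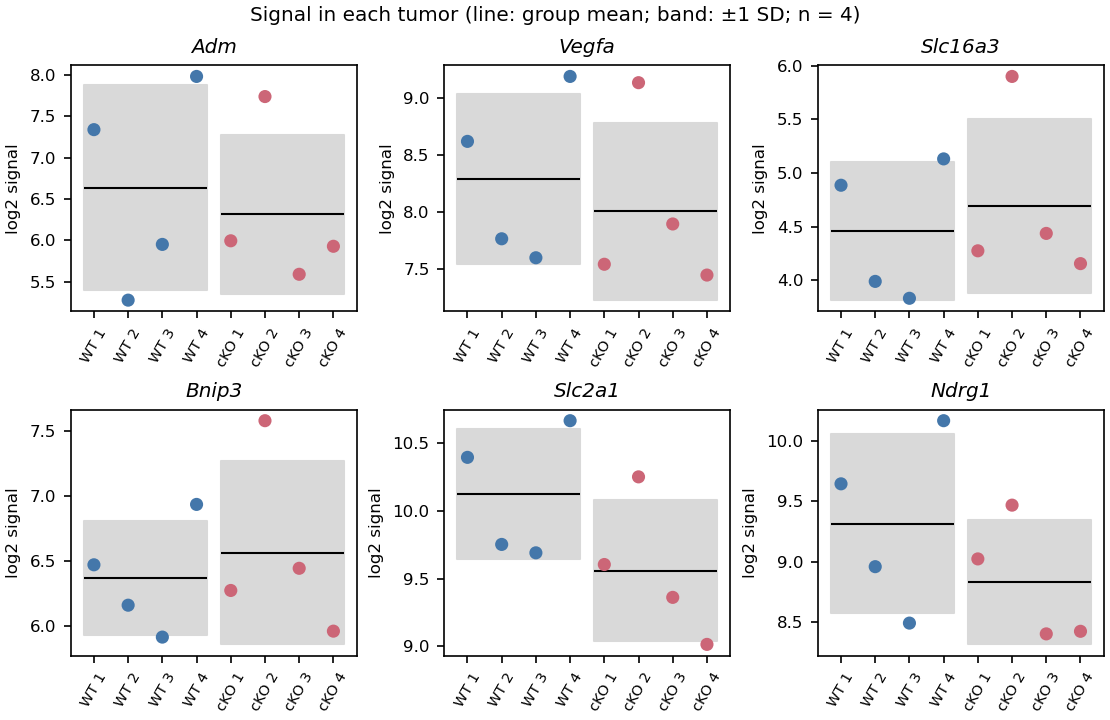
Log2 signal (vertical axis) of Adm, Vegfa, Slc16a3, Bnip3, Slc2a1 and Ndrg1 in each tumor (horizontal axis; blue WT, red cKO), with the mean of each group as a line and ±1 SD as a band (n = 4). In all 6 panels WT 1 and WT 4 are the highest WT tumors and cKO 2 is the highest cKO tumor.

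Glucose enters cells through facilitative transporters, and Slc2a1 (GLUT1) is the form that hypoxia and oncogenes raise. Slc2a1 had log2 signals of 10.39, 9.75, 9.69 and 10.66 in the WT tumors and 9.60, 10.25, 9.36 and 9.02 in the cKO tumors. The 3 lowest tumors were all cKO, but cKO 2 lay above WT 2 and WT 3. The means were 10.13 ± 0.48 and 9.56 ± 0.52 (SD, n = 4 per group), a difference of −0.57 (interval −1.23 to 0.10, limma adjusted p 0.585). It was −0.39 without WT 4 or cKO 4 and −0.80 without cKO 2. A second, dim row of Slc2a1 had WT 3, WT 4 and cKO 2 highest and differed by −0.38. Slc2a3 (GLUT3), a high-affinity transporter of neurons and leukocytes, was dim throughout, between 2.76 and 3.52, and differed by −0.23.

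The enzymes of upper glycolysis did not move as a block. Hexokinase 2 (Hk2), the inducible enzyme that traps glucose in the cell, had signals of 7.13, 5.94, 6.51 and 7.27 in the WT tumors and 5.93, 6.55, 6.61 and 6.26 in the cKO tumors. WT 1 and WT 4 were again highest, while cKO 2 was not set apart. Hexokinase 1 (Hk1), the widely expressed form, varied less, between 8.09 and 8.69. Of the phosphofructokinases, which catalyse the committed step, Pfkp ranged from 8.56 in cKO 3 and cKO 4 to 9.80 in WT 4 and 10.02 in cKO 2. The liver form Pfkl stayed between 9.38 and 9.88. The muscle form Pfkm ran the other way in the WT tumors, with 5.97 in WT 1 and 6.04 in WT 4 against 6.52 in WT 2 and 6.60 in WT 3. Aldoc, the brain-type aldolase, was highest in cKO 1 (10.83) and WT 2 (10.77) and lowest in WT 4 (9.996), so it too departed from the order of Adm. Triosephosphate isomerase (Tpi1) lay at 10.51 in WT 4 and 10.64 in cKO 2. The group differences of these 7 genes ran from −0.40 for Pfkp to 0.16 for Aldoc, and the lowest adjusted p among them, from limma, was 0.709.

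Pfkfb3 and Pfkfb4 encode the bifunctional enzymes that make and remove fructose 2,6-bisphosphate, the activator of phosphofructokinase. Pfkfb3 had log2 signals of 6.41, 5.98, 5.50 and 6.69 in the WT tumors and 5.55, 5.52, 5.28 and 5.94 in the cKO tumors. In this gene cKO 2 was not high, and 3 WT tumors were above all 4 cKO tumors while WT 3 was among them. The difference of −0.58 (SE 0.25) had an unadjusted p of 0.0445 and an adjusted p of 0.501 in limma, and it ran from −0.79 without WT 3 to −0.39 without WT 4. Pfkfb4 was dim and nearly flat, between 3.37 and 3.72.

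In lower glycolysis WT 4 and cKO 2 were the highest tumors for each of the 5 genes measured. Phosphoglycerate kinase 1 (Pgk1), the first enzyme of the pathway that makes ATP, had signals of 10.24, 10.09, 9.87 and 10.37 in the WT tumors and 10.02, 10.79, 9.63 and 9.90 in the cKO tumors. Phosphoglycerate mutase 1 (Pgam1) reached 9.15 in WT 4 and 9.25 in cKO 2 and lay between 8.32 and 8.69 elsewhere. Pyruvate kinase (Pkm) lay between 10.42 and 11.06. The neuronal enolase Eno2 was dim, at 4.31 in WT 4, 4.21 in cKO 2 and 4.09 in WT 1 and at most 3.90 in the others. Gapdh, often used as a reference gene, ranged over 0.36, from 11.60 in cKO 4 to 11.97 in cKO 2. Group differences in this set were small, between −0.12 for Pkm and 0.016 for Pgam1. Gapdh had 3 array rows and Pgam1 had 2, and signals of such genes can include related sequences.

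The fate of pyruvate is set by lactate dehydrogenase, by a kinase that closes its way into the mitochondrion and by lactate export. Slc16a3 (MCT4), the exporter of lactate from glycolytic cells, was dim, with a mean under 5, and had log2 signals of 4.89, 3.99, 3.83 and 5.13 in the WT tumors and 4.28, 5.90, 4.44 and 4.16 in the cKO tumors. cKO 2 stood far above the next cKO tumor, and the group difference turned from 0.23 to −0.17 without it. Ldha, the dehydrogenase subunit that favours lactate, had signals of 6.84, 6.81, 6.48 and 7.04 in the WT tumors and 6.61, 7.10, 6.10 and 6.001 in the cKO tumors. cKO 3 and cKO 4 were below all WT tumors, and cKO 2 was above them. Its difference was −0.34 (interval −0.87 to 0.19, limma adjusted p 0.678), and −0.56 without cKO 2. Pdk1, the kinase that inhibits pyruvate dehydrogenase, ranged only from 6.69 to 7.24.

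The membrane carbonic anhydrases, which buffer the acid that glycolysis produces, differed from each other. Car9, a widely used marker of tumor hypoxia, had signals of 6.85, 7.12, 6.99 and 7.49 in the WT tumors and 7.10, 7.87, 6.33 and 7.17 in the cKO tumors. It was highest in cKO 2 and WT 4, as were most of the genes, but WT 1 was not high. A second, dimmer row of Car9 was highest in WT 2 and differed by −0.090, so the rows of this gene disagree. Car12, which is also expressed by differentiated mammary epithelium, had signals of 9.34, 10.31, 9.82 and 9.27 in the WT tumors and 10.01, 10.31, 10.41 and 10.47 in the cKO tumors. Its order was unlike that of Adm, with WT 1 and WT 4 lowest, and WT 2 overlapped the cKO tumors. The Car12 difference of 0.62 (SE 0.22) was the largest upward difference among the 38 genes, with an unadjusted p of 0.0219 and an adjusted p of 0.442 in limma. It kept its sign with any 1 tumor left out, between 0.48 without WT 4 and 0.83 without WT 2. The exact two-sided permutation p was 0.0571, where 4 against 4 tumors allow no p below 0.0286.

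The intracellular targets of the response repeated the order of Adm in part. Bnip3, which drives the removal of mitochondria, had log2 signals of 6.47, 6.16, 5.91 and 6.93 in the WT tumors and 6.27, 7.58, 6.44 and 5.96 in the cKO tumors. Ndrg1, a stress protein strongly induced by hypoxia, had signals of 9.64, 8.96, 8.49 and 10.16 in the WT tumors and 9.02, 9.47, 8.41 and 8.43 in the cKO tumors. In both genes WT 1, WT 4 and cKO 2 were highest, with WT 4 leading in Ndrg1 and cKO 2 in Bnip3. A dim second row of Ndrg1 had the same 3 tumors highest. The repressor Bhlhe40 was also highest in these tumors, at 10.05 in WT 4, 9.58 in cKO 2 and 9.30 in WT 1, against at most 9.16 in the others. Ddit4 (REDD1), which restrains mTOR, was highest in WT 4 (8.88), and cKO 2 (8.13) was the lowest cKO tumor. Kdm3a, a histone demethylase that needs oxygen, lay between 8.19 and 8.89, and heme oxygenase 1 (Hmox1) was highest in cKO 2 (6.90) and cKO 1 (6.87). Mxi1, an antagonist of MYC, ranged over 0.27, more than only 9.82% of tested rows. A second, dimmer row of Mxi1 varied more, from 4.41 in WT 2 to 5.16 in WT 1, and differed by 0.089. Differences between the groups lay between −0.48 for Ndrg1 and 0.19 for Bnip3, and that of Ndrg1 was −0.20 without WT 4.

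Hypoxia also raises enzymes of protein folding and of collagen maturation. Ero1l (now Ero1a), the oxidase that supplies disulfide bonds in the endoplasmic reticulum, had signals of 10.28, 9.70, 9.78 and 10.40 in the WT tumors and 9.89, 10.52, 9.77 and 9.98 in the cKO tumors. P4ha1, a catalytic subunit of collagen prolyl 4-hydroxylase, had signals of 7.51, 7.26, 6.82 and 7.60 in the WT tumors and 7.27, 8.02, 7.14 and 7.12 in the cKO tumors. Both had WT 1, WT 4 and cKO 2 as their highest tumors, and the groups differed by 0.0017 and 0.093. A second, dimmer row of Ero1l had WT 3, WT 4 and cKO 2 highest and differed by −0.31, and the mean of its rows differed by −0.15. The second subunit gene, P4ha2, departed from this, with 5.68 in WT 4 and 5.66 in cKO 4 above 5.05 in cKO 2. P4ha2 differed by −0.32 (interval −0.78 to 0.15). Fibroblasts, which make most collagen, were marked by a score that was lowest in cKO 3 (−1.88), where P4ha2 also had its lowest signal, 4.63. WT 4, with the highest P4ha2 signal, had the lowest fibroblast score of the WT tumors (0.15). The part of these cells in the P4ha2 values was not tested.

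Of the oxygen sensing genes themselves, Epas1 gave the lowest unadjusted p of the 38 genes. Epas1 (HIF-2α), which endothelium expresses strongly, had log2 signals of 7.14, 7.25, 7.19 and 7.11 in the WT tumors and 7.18, 6.34, 6.71 and 6.51 in the cKO tumors. In 3 cKO tumors the signal was below all WT tumors, while cKO 1 lay among them. The difference was −0.49 (interval −0.85 to −0.12), with an unadjusted p of 0.015, an adjusted p of 0.403 from limma and an exact two-sided permutation p of 0.0857. It lay between −0.65 without cKO 1 and −0.37 without cKO 2. Endothelial markers were lowest in cKO 3 and cKO 2, with list scores of −0.54 and −0.42 on the log2 scale, but cKO 4, with a low Epas1 signal, had an endothelial score of 0.29. The part of endothelial content in the Epas1 difference was not tested. Hif1a was 8.79 in cKO 2 and between 8.05 and 8.32 in the 7 other tumors. The prolyl hydroxylases Egln1 (PHD2) and Egln3 (PHD3), which hypoxia itself induces, were both high in WT 4 and cKO 2. Egln1 stood at 8.31 and 8.02 in these tumors and at most at 7.80 elsewhere. Egln3 stood at 10.47 and 10.48 in them and was highest in cKO 4, at 10.70.

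Hypoxia-inducible factors bind the core letters ACGTG or GCGTG, and the stretches just before the start sites of the genes were searched for these letters on both strands. RefSeq windows of 250 bases before the annotated start (build GRCm38.p6, 1 window per gene) were found for 33 of the 38 genes, and 26 of these (78.8%) held at least 1 match, beside 38.6% of 27025 genes. The windows of the 33 genes were richer in CG pairs, with a median of 16 against 6 over all genes, and each core holds a CG pair, so the shares are not those of windows of like composition. The match CACGTG, which holds the first core on both strands and is also the E-box bound by MYC and related factors, was found in 4 of the 33 windows and in 6.05% of all. Of the 11 genes with a window among the 13 whose highest tumors were WT 1, WT 4 and cKO 2, 9 held a match. This share was like that of all 33 genes, of which 26 held one. Windows are shown for the 4 with the widest range over the tumors among the 9 with a match. They were chosen for having WT 1, WT 4 and cKO 2 as their highest tumors, so their likeness in this was set by the choice. The lowest tumor was WT 2 for Adm, WT 3 for Slc16a3 and Bnip3, and cKO 4 for Slc2a1. Matches on either strand are in capitals (CACGT and CACGC are the cores read from the opposite strand).
Adm, chr7:110627407-110627656, plus strand: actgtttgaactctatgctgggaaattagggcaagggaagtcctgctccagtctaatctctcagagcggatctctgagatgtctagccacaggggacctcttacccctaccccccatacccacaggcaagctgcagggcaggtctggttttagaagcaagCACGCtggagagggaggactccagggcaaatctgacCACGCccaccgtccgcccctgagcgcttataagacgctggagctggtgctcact
Slc16a3, chr11:120948817-120949066, plus strand: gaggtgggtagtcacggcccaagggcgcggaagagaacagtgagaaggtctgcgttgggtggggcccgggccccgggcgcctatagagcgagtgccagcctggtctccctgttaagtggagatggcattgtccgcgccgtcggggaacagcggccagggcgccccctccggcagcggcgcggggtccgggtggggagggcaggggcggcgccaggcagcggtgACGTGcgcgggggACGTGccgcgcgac
Bnip3, chr7:138909507-138909756, minus strand: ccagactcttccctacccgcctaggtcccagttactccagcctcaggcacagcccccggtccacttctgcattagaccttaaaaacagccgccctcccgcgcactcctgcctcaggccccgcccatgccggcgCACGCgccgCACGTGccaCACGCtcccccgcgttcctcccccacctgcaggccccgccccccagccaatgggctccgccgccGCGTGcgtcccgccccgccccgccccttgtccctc
Slc2a1, chr4:119108495-119108744, plus strand: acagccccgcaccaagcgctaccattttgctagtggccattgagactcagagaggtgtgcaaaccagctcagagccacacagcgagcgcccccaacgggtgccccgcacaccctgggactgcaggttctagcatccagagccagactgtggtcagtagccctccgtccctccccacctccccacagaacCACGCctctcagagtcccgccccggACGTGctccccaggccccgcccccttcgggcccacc
Adm and Slc2a1 held 2 matches each and Slc16a3 held 2 copies of ACGTG within the last 27 bases before the start. In Bnip3 the matches include the hexamer CACGTG. Vegfa, which followed the same order of tumors, held no match in its window and is not shown. Its range (1.75) was wider than those of Bnip3 (1.66) and Slc2a1 (1.65). A match is a description of the letters, and no binding was measured here.

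The genes were then summarised as a score for each tumor, the mean over the 38 of the log2 signal minus each gene's mean over the 8 tumors. The score was 0.11, −0.10, −0.19 and 0.37 in WT 1 to WT 4 and −0.11, 0.33, −0.25 and −0.16 in cKO 1 to cKO 4. WT 4 and cKO 2 were the highest tumors and cKO 3 the lowest. The spread was widest in the secreted factors, whose score reached 0.96 in WT 4 and 0.84 in cKO 2 and was lowest in WT 2, at −0.69. In the upper glycolysis genes it was narrow, between −0.20 in cKO 4 and 0.24 in cKO 2. No tumor stood apart on the score of all 38 genes within its group by the gap test for 4 values. cKO 2 stood apart from the other cKO tumors in the score of the secreted factors and in that of the pyruvate and lactate genes. These were 2 of 6 such gaps in 142 groups of 4 tumors examined, where chance gives about 1 in 20.

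Markers of other cell types were set beside these scores. The 8 luminal epithelial markers gave scores of 0.19, 0.01, −0.09 and 0.40 in the WT tumors. In the cKO tumors their scores were −0.04, 0.13, −0.29 and −0.32. WT 4, WT 1 and cKO 2 had the highest scores, but only 3 of the 8 markers (Krt8, Krt18 and Cldn7) were highest in these tumors. Elf5 was lowest in cKO 2 (9.12), and Krt19 was lower in cKO 2 (7.96) than in WT 2 (8.13). The 7 endothelial markers were lowest in cKO 3 (−0.54), cKO 2 (−0.42) and WT 4 (−0.15) and highest in cKO 4 and WT 1 (both 0.29). The 8 fibroblast markers ranged from −1.88 in cKO 3 to 0.74 in WT 2. The 8 skeletal muscle markers were highest in WT 2 (1.43), WT 4 (0.63) and cKO 2 (0.42) and lay below 0 in the 5 other tumors. Of the 38 genes, 3 (Hif1a, Pfkp and Pkm) also had WT 2, WT 4 and cKO 2 as their highest tumors, while Adm was lowest in WT 2. The 6 neutrophil markers lay between −0.25 and 0.19 and the 7 macrophage markers between −0.27 and 0.45, with cKO 4 highest in the latter. The score of the 6 adipocyte markers was lowest in cKO 3 (−0.55), as was that of the fibroblast markers. Among the adipocyte markers Fabp4 was lowest in cKO 3 (3.96), while Plin1 was highest there (3.81). Adipoq, Plin1, Cidec and Lep were dim, with means under 5. The 4 basal and myoepithelial markers were highest in WT 4 (0.36) and cKO 2 (0.18) and lowest in cKO 3 (−0.61). Among them only Krt14 was highest in cKO 2 (7.79), WT 4 (7.49) and WT 1 (7.01). Trp63 was lowest in cKO 2 (4.75), and Oxtr was highest in WT 2 (6.07). Acta2 was highest in WT 4 (8.34), with WT 3 next (7.88). The score of the 5 T cell markers was lowest in WT 4 (−0.38) and cKO 2 (−0.16). Cd3e, Cd3g and Cd8a were lowest in WT 4, Cd4 in cKO 2 (4.25) and Cd3d in cKO 4. In cKO 2 Cd3e (4.50) was among its highest signals. All of these T cell markers were dim, with means under 5. The part of these cell types in the values of the 38 genes was not tested.

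**Figure D3:**
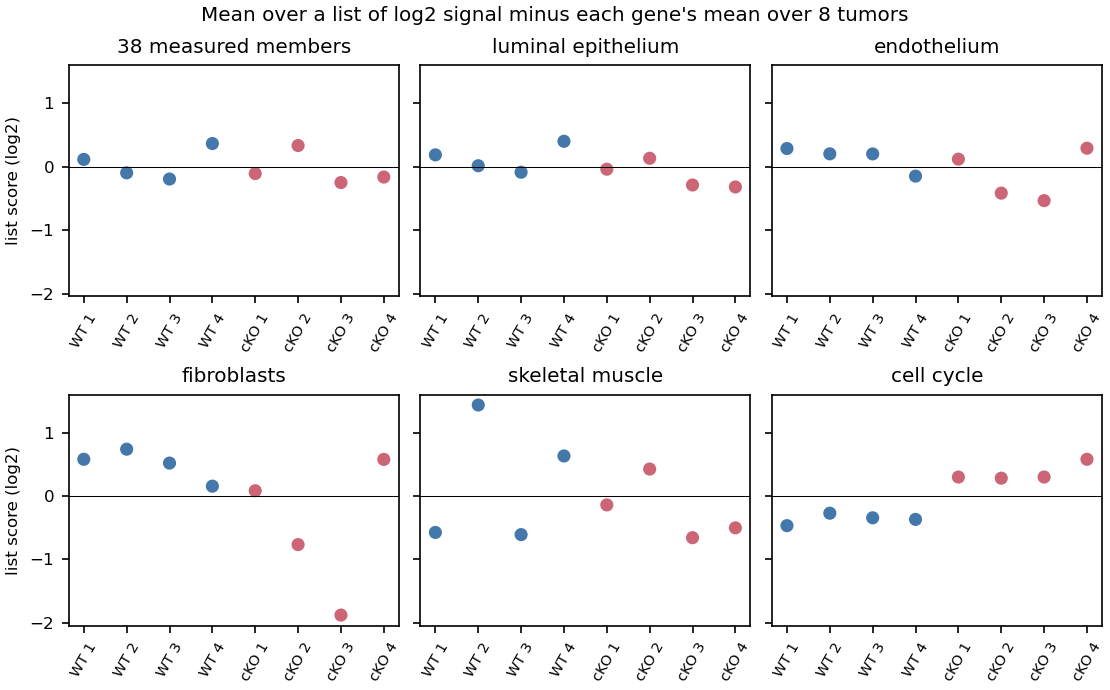
List scores on the log2 scale (vertical axis, the mean over a list of the signal minus each gene's mean over the 8 tumors) in each tumor (horizontal axis; blue WT, red cKO) for the 38 genes and for markers of 4 cell types and of the cell cycle. The score of the 38 genes is highest in WT 4 (0.37) and cKO 2 (0.33), and that of the cell cycle markers lies below 0 in all WT tumors and above 0 in all cKO tumors.

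**Figure D4:**
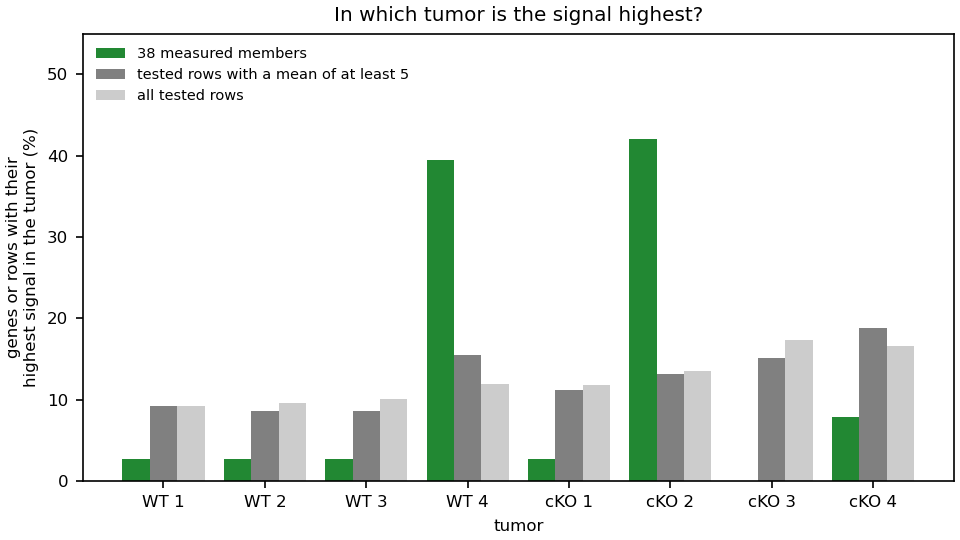
Share in percent (vertical axis) of genes or rows whose highest signal among the 8 tumors was in the tumor named on the horizontal axis, for the 38 genes (green), rows with a mean of at least 5 (dark grey) and all tested rows (light grey). WT 4 (39.5%) and cKO 2 (42.1%) hold most of the 38 genes, and cKO 3 holds none of them.

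The comparison between the groups asks whether tumors in which Mmp14 was targeted differed in these genes. No gene of the 38 passed an adjusted p of 0.05 in limma over all 23521 rows, where 0.0085% of rows passed (0.00425% in each direction), and 3 genes (7.89%) had an unadjusted p below 0.05, beside 9.68% of rows. These were Car12, higher in cKO (5.54% of rows were higher at that level), and Epas1 and Pfkfb3, lower in cKO (4.14% of rows). In none of the 38 did the groups separate without overlap, beside 5.42% of rows (3.68% with cKO higher and 1.73% with cKO lower). Of the 38 genes 16 were higher and 22 lower in cKO. Their median difference was −0.046 on the log2 scale, beside 0.023 over all rows. The mean score of the WT tumors was 0.047 ± 0.25 and that of the cKO tumors −0.047 ± 0.26 (SD, n = 4 each). The 5 genes whose difference was larger than the within-group SD were Epas1, Pfkfb3, Car12, Slc2a1 and Slc2a3. The unadjusted 95% confidence interval lay within −1 and 1 in 29 genes. The others, among them Adm, Vegfa, Slc16a3, Slc2a1 and Ndrg1, were those in which a change by a factor of 2 was not outside the interval. The median difference was −0.18 without cKO 2, with 30 genes lower, and 0.029 without WT 4, with 17 lower. Within arrays 1 to 4 by file number the median difference was 0.082, with 25 genes higher in cKO, and within arrays 5 to 8 it was −0.29, with 31 lower, with 2 tumors per group in each. The labels do not call these sets batches. The scores of the cell cycle markers lay between −0.47 and −0.27 in the WT tumors and between 0.28 and 0.58 in the cKO tumors, and their part in the differences was not tested.

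**Figure D5:**
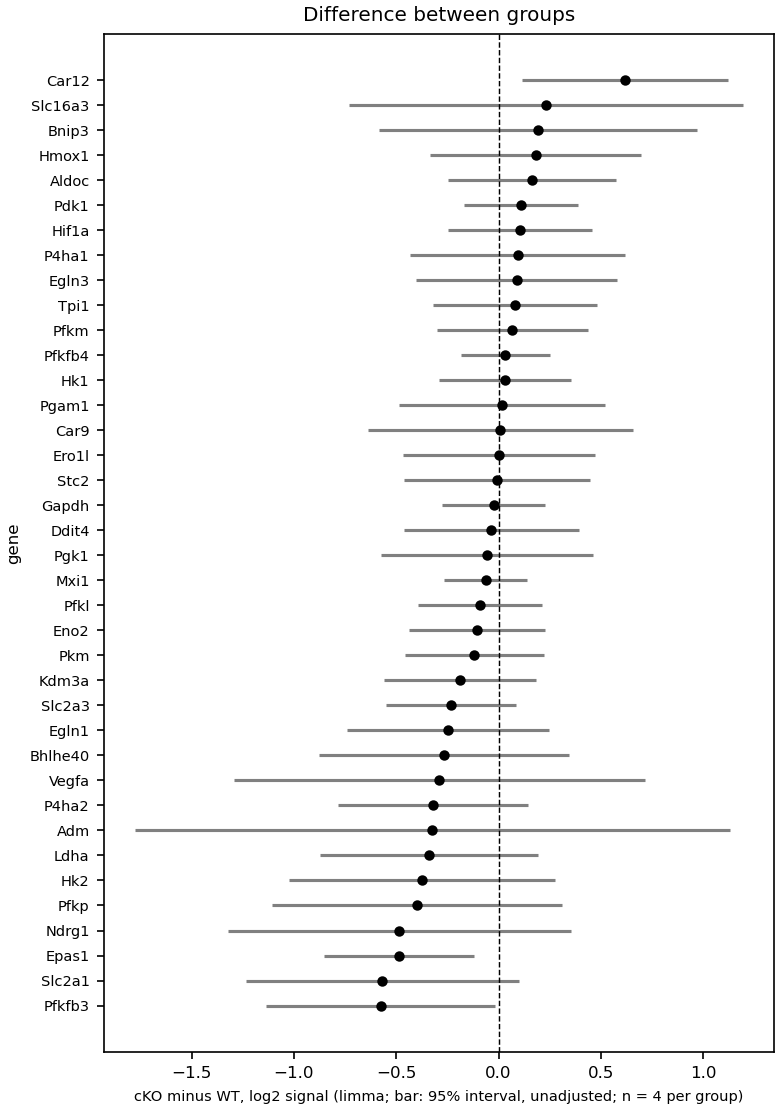
Difference of the group means of log2 signal, cKO minus WT (horizontal axis), for each of the 38 genes (vertical axis, ordered by the difference), with the unadjusted 95% confidence interval from limma as a bar (n = 4 per group). The interval leaves out 0 for Car12, Epas1 and Pfkfb3 alone, and it is widest for Adm.

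Genes of the same pathways outside the 38 were compared in the same fit. Of 13 other oxygen sensing genes, none passed in limma and none had an unadjusted p below 0.05, with a median difference of −0.029. The 4 with the lowest p were Egln2 (PHD1), which differed by −0.28 (adjusted p 0.54), the elongin subunit Eloc (0.17), the ubiquitin ligase Siah1a (−0.18) and the ARNT paralog Arnt2 (0.48). Of 29 other measured targets of the hypoxia-inducible factors, none passed over all rows by limma, and 7 (24.1%) had an unadjusted p below 0.05, beside 9.68% of all rows. Of the 7, 3 were higher and 4 lower in cKO. Their median difference was −0.081, with 12 genes higher and 17 lower. The transferrin receptor Tfrc, which takes up iron, was between 8.01 and 8.23 in the WT tumors and between 8.27 and 8.75 in the cKO tumors, with a difference of 0.39 (SE 0.12, adjusted p 0.365). The chemokine receptor Cxcr4 differed by 0.89 (SE 0.29, adjusted p 0.394), with cKO 2 (7.53) below WT 2 (7.80). Stc1, the paralog of Stc2, was between 5.91 and 6.87 in WT and between 4.28 and 5.83 in cKO, a difference of −1.04 (SE 0.34, adjusted p 0.397). The VEGF receptor Flt1 differed by −0.66 (SE 0.23, adjusted p 0.43). In Tfrc, Stc1 and the collagen crosslinking enzyme Lox, which was chosen after its values were seen, the groups did not overlap. These are 10.3% of the 29 targets, beside 5.42% of all rows. Lox differed by −1.47, with cKO 3 at 4.26, the tumor with the lowest fibroblast score, and the other cKO tumors between 6.21 and 7.13.

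Of these 29 targets 3, or 10.3%, had WT 1, WT 4 and cKO 2 as their highest tumors, named here after their values were seen. The share was 3.51% over all rows and 5.80% over rows with a mean of at least 5, so a count this small is not set apart. The adenylate kinase Ak4 had signals of 5.94, 5.05, 5.003 and 6.31 in the WT tumors and 5.41, 6.65, 5.51 and 5.68 in the cKO tumors. The mitochondrial protein Higd1a reached 6.74 in WT 4, and glycogen synthase Gys1 reached 8.58 there. No gene among the 29 others of glucose metabolism or the 13 of oxygen sensing had these 3 tumors highest, and at those shares few or none of either list would. In the list of glucose metabolism, 17 genes were higher and 12 lower, with a median difference of 0.042, none passed in limma and 1 gene had an unadjusted p below 0.05. This was Pdk4, a pyruvate dehydrogenase kinase raised by fasting and fatty acids, at −0.75 (SE 0.21, adjusted p 0.318). The next by p were Pfkfb2 (−0.20), Hk3 (0.21) and the glycogen phosphorylase Pygl (−0.55).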

How the data were processed

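RNA of whole tumors, 400 ng each, was labelled with the GeneChip WT Plus kit and hybridized to Affymetrix arrays, per the labels' protocols. The authors deposited log2 signals for each row of each array. RMA and limma are named in the submitters' processing notes, with settings not given in the sources used here. Values lay between 0.853 and 12.9, and arrays correlated pairwise with r between 0.976 and 0.989 over rows.

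The platform annotation gave a single gene symbol for 23521 of 41345 rows, several for 1814 and none for 16010, which are unnamed here. Symbols were updated by gene identifier from RefSeq (GRCm38.p6). Where a gene had several rows, the brightest by mean over all tumors was used.

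The 23521 rows were fitted in limma 3.58.1 under R 4.3.3 with lmFit and eBayes (two-sided, no covariate, prior degrees of freedom 3.07, residual 6). Benjamini-Hochberg adjustment covered every row, with a threshold of 0.05, and the fit was checked on simulated data. Named are the 38 measured genes, Mmp14, and the 4 genes of smallest p in each of 3 further lists of pathway genes. Lox, Ak4, Higd1a and Gys1 were added after their values were seen. Markers are given as list scores, with single genes named where a result stands beside them. Genes and lists were chosen with earlier results of these data known, so no list was tested. P-values set a group difference against the spread between these tumors, moderated over rows. Whether each tumor came from its own mouse is not known, so they may not carry over to animals. Over rows with a mean of at least 5, same-numbered tumors of the 2 groups did not consistently deviate together (r −0.02, −0.20, 0.29 and −0.24). The numbers were therefore not used as pairs. The highest r of any WT and cKO tumor over these rows was 0.37, that of WT 4 with cKO 2.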

Additional observations from a re-analysis of the deposited data

Results flagged for a closer look

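Within each group of 4 tumors, the gap of the highest or lowest tumor to its neighbour was compared with the group's range for the 38 genes, 12 named pathway genes and the list scores. Of 142 groups examined, 6 had a gap above Dixon's 95% critical value, where chance gives about 1 in 20. Slc16a3 in cKO 2 (5.90) stood above the next cKO tumor at 4.44. P4ha1 in cKO 2 (8.02) stood above the next at 7.27. The score of the pyruvate and lactate genes was 0.61 in cKO 2 and at most −0.13 in the other cKO tumors. The score of the secreted factors was 0.84 in cKO 2 and at most −0.35 in the others. Tpi1 in WT 4 (10.51) stood above the next WT tumor at 10.08. The cell cycle marker score was 0.58 in cKO 4 and at most 0.30 in the other cKO tumors.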

How the results depend on the processing

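The alternatives were a second quantile normalization, a shift of the arrays to 1 median, a filter on rows with a mean under 5, the mean of all rows of a gene, eBayes with trend and robust fitting, array weights, the replicate number as a block, the array file number as a block and each tumor left out. No gene of the 38 and none of the pathway lists passed over all rows under any of these 16 settings, and the lowest adjusted p of any of the 38 was 0.145, that of Car12 without WT 2. With the replicate block 0 rows passed in all and 1898 had an unadjusted p below 0.05, and with the array number as a block 1 row passed. With single tumors left out the count of all rows passing lay between 0 and 3, the median difference of the 38 genes between −0.18 (without cKO 2) and 0.029 (without WT 4), and their count at an unadjusted p below 0.05 between 1 (without WT 1 or WT 4) and 5 (without cKO 2). The row filter, the trend and robust fitting and both blocks leave a difference unchanged, so no sign could turn under these. Of 300 differences of single genes under all the alternatives that kept every tumor, 294 kept their sign. Those that turned were Stc2 (0.015 with quantile normalization and 0.0055 with the median shift), Car9 (−0.041), Mxi1 (0.013) and Ero1l (−0.15) with the mean of all rows, and Ero1l (−0.045) with array weights. With single tumors left out 20 of the 38 genes kept their sign and 18 did not. Their ranges were −0.055 to 0.19 for Hif1a, −0.062 to 0.28 for Egln3, −0.069 to 0.11 for Hk1, −0.038 to 0.17 for Pfkm, −0.057 to 0.20 for Tpi1, −0.024 to 0.092 for Pfkfb4, −0.098 to 0.039 for Gapdh, −0.29 to 0.094 for Pgk1, −0.17 to 0.17 for Pgam1, −0.17 to 0.46 for Slc16a3, −0.24 to 0.27 for Car9, −0.67 to 0.010 for Vegfa, −0.80 to 0.12 for Adm, −0.17 to 0.11 for Stc2, −0.14 to 0.40 for Bnip3, −0.14 to 0.16 for Ddit4, −0.16 to 0.12 for Ero1l and −0.12 to 0.19 for P4ha1. Signal over background is not known here, and 4 of the 38 genes had a mean under 5.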
